A study of Homo sapiens with 15 samples.

Results

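COPI is the protein coat that buds vesicles from the Golgi for transport back to the endoplasmic reticulum (ER). The genes described are its coat subunits COPA, COPB1, COPB2, COPE, COPG1, COPG2, COPZ1 and ARCN1, together with ARFGAP3, a GTPase-activating protein of the pathway. They were chosen by gene symbol with earlier results of these data known, and all 9 have a row among the 13243 genes of the count table. The other gene lists and the motifs below were chosen likewise, so their counts of calls and matches are descriptive. The RNA-seq libraries are of HEK293T, an established human embryonic kidney line, in 5 groups that share the line, the 4 h treatment time and 37C. The groups were IXA1 (2 libraries analysed, another labelled sample having no column that could be assigned to it), IXA4 (3), IXA6 (3), thapsigargin, written Tg (3), and the vehicle DMSO (3). The labels call the IXA compounds IRE1/XBP1s activators and Tg a UPR activator. No dose is given in the sources used here, so the compounds were compared at a matched time and at unknown doses. The libraries are said to come from independent experiments, and bulk RNA cannot separate a change in cell make-up from a change in RNA per cell.

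As background, the unfolded protein response (UPR) is the ER's reaction to misfolded proteins, and it enlarges the folding, degradation and transport capacity of the secretory pathway. IRE1 is an ER sensor that splices XBP1 mRNA, and the spliced form encodes the transcription factor XBP1s. Tg empties ER calcium stores by blocking the ER calcium pump and so activates all UPR branches. The COPI coat is recruited as a preformed complex, coatomer, by the small GTPase ARF1. Its alpha, beta-prime and epsilon subunits (COPA, COPB2 and COPE) form the outer, cage-like part. Its beta, delta, gamma and zeta subunits (COPB1, ARCN1, COPG1 or COPG2, and COPZ1) form the part that faces the membrane and resembles the clathrin adaptors. ARFGAP3 makes ARF1 hydrolyse its GTP, a step linked to uncoating and to cargo sorting.

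Total counts ranged from 14160321 to 15726742 per library, and genes varied between replicates with a biological coefficient of variation of 5.66%. The 9 genes had 699 to 7814 counts in a library. XBP1 rose with each treatment and averaged 268 ± 10 CPM with IXA1, 234 ± 13 with IXA4, 233 ± 2.3 with IXA6 and 485 ± 8.1 with Tg, against 131 ± 5.3 with DMSO (SD). CPM is a gene's counts scaled to a common library size after TMM normalization. DDIT3, which encodes the stress factor CHOP, was at 7.14 ± 1.4 CPM with IXA1, 6.75 ± 0.49 with IXA4, 8.10 ± 1.1 with IXA6 and 113 ± 2.0 with Tg, against 5.86 ± 0.090 CPM with DMSO. It rose with Tg and IXA6 (edgeR adjusted p = 3e-21 and 0.0353) and did not pass with IXA1 (0.308) or IXA4 (0.658). DNAJB9 and HSPA5 rose with every treatment, and HSPA5 averaged 5270 CPM with Tg against 524 CPM with DMSO. ACTB fell with Tg, to 1913 CPM against 2724 CPM with DMSO (edgeR adjusted p = 2.66e-07), and passed with no IXA compound. GAPDH passed with no treatment against DMSO, but it was lower with IXA4 (1554 CPM) than with IXA1 (1973 CPM, edgeR adjusted p = 0.00928). All 5 markers listed for HEK293 lines were measured, from KRT8 (3.12 to 6.41 CPM) to VIM (340 to 419 CPM). Of 14 markers listed for blood, endothelium, fibroblasts and liver cells, 3 had values. Among these, the fibroblast markers COL1A1 and LUM were at 9.28 to 14.3 CPM and 0.988 to 3.26 CPM, and no value of the fibroblast markers COL1A2 and DCN was analysed here.

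**Figure D1:**
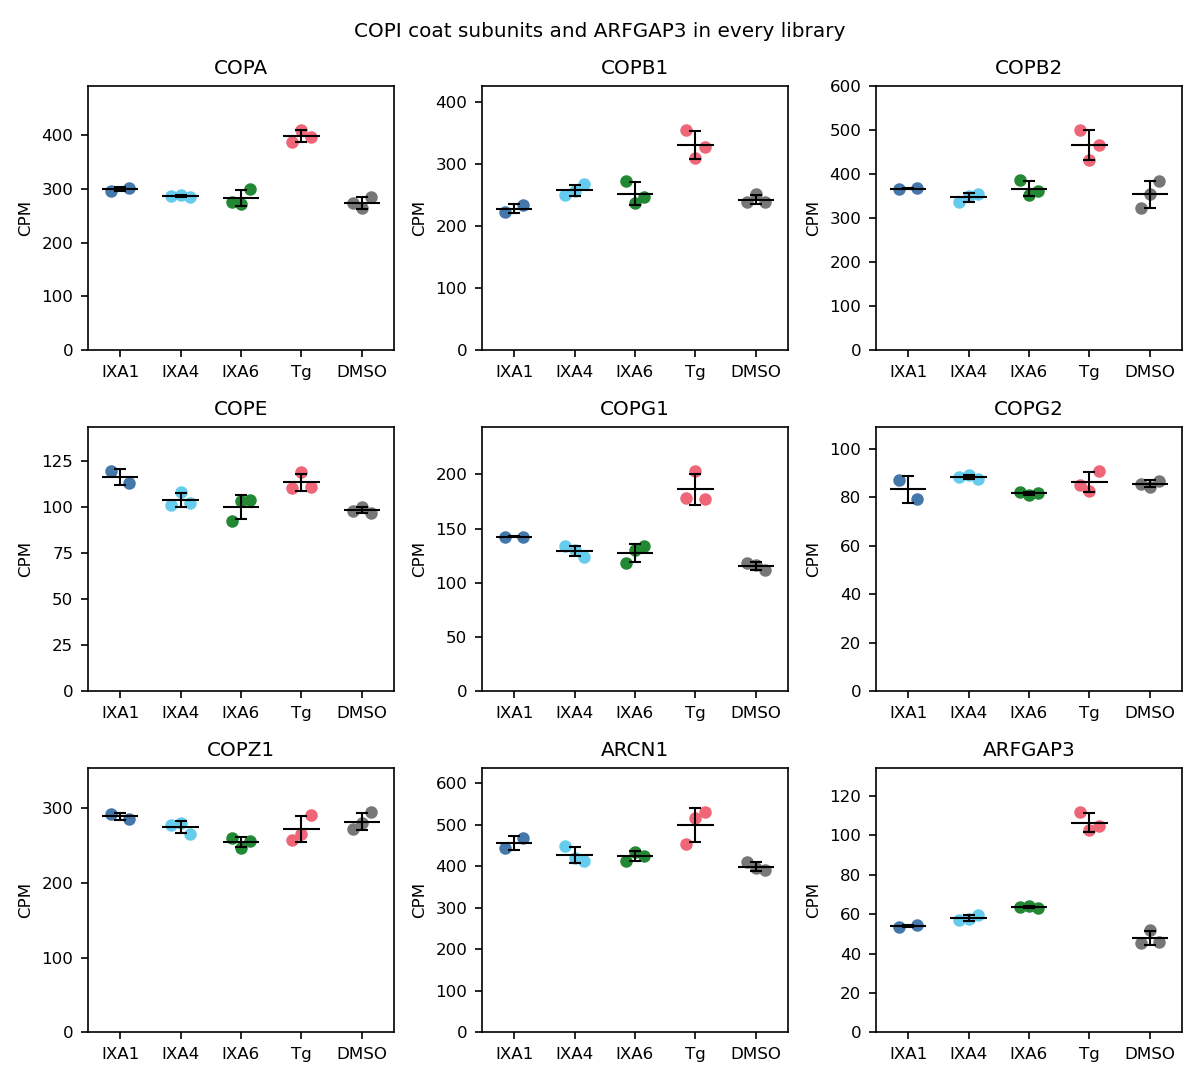
Level of each gene in every library, in CPM on a linear axis from 0, by group (IXA1, IXA4, IXA6, Tg, DMSO). Points are libraries and bars are the mean ± SD. The Tg libraries lie above the DMSO libraries for 7 of the 9 genes, COPG2 and COPZ1 being the others, and ARFGAP3 also lies higher in every IXA library.

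Levels were compared between genes per length, as CPM per kb of the longest principal transcript of each gene in GENCODE release 29. The annotation is of another build than the one named in the submitters' processing notes, so these values are approximate. With DMSO the order was COPZ1 (149 ± 6.2 CPM per kb, SD, n = 3), COPB2 (106 ± 9.2), ARCN1 (104 ± 2.6), COPE (86.1 ± 1.4), COPB1 (69.7 ± 2.1), COPA (57.2 ± 2.2), COPG1 (37.5 ± 1.1), COPG2 (27.3 ± 0.42) and ARFGAP3 (16.7 ± 1.3). COPB2 and ARCN1 overlapped in their ranges and cannot be ordered, while each other gene's range was clear of its neighbours. With Tg the top of the order closed up, with COPZ1 at 143 ± 9.1, COPB2 at 139 ± 10 and ARCN1 at 130 ± 11 CPM per kb, whose ranges overlapped. COPG1 with Tg reached 60.5 ± 4.7 CPM per kb, whereas COPG2 stood at 27.5 ± 1.3.

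Against DMSO, Tg raised most of the coat and ARFGAP3, whereas each IXA compound raised 1 or 2 of the 9 genes. With Tg 7 genes rose and none fell, where 18.8% of all genes tested were called higher and 17% lower. With IXA1 2 rose (COPG1 and COPE), against 1.82% of all genes called higher and 0.491% lower. With IXA4 and with IXA6 only ARFGAP3 rose, against 0.717% and 1.51% of all genes. Calls are those of edgeR's quasi-likelihood test at a Benjamini-Hochberg adjusted p under 0.05 over all 13243 genes. Among the 8 coat genes none passed with IXA4 and none with IXA6, while 1 and 2 of them had an unadjusted edgeR p under 0.05, and DESeq2 called 0 and 0. The median log2 fold change of the 8 coat genes was 0.088 with IXA1, 0.070 with IXA4, 0.047 with IXA6 and 0.36 with Tg, and that of all genes was -0.0053, -0.0019, 0.00053 and -0.0077. The 4 comparisons share the DMSO libraries. Over all genes 2493 were called higher and 2253 lower with Tg, and 1749 and 3390 with scaling by library totals. With IXA1 the split was 241 higher and 65 lower, and 156 and 111 with library totals.

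**Figure D2:**
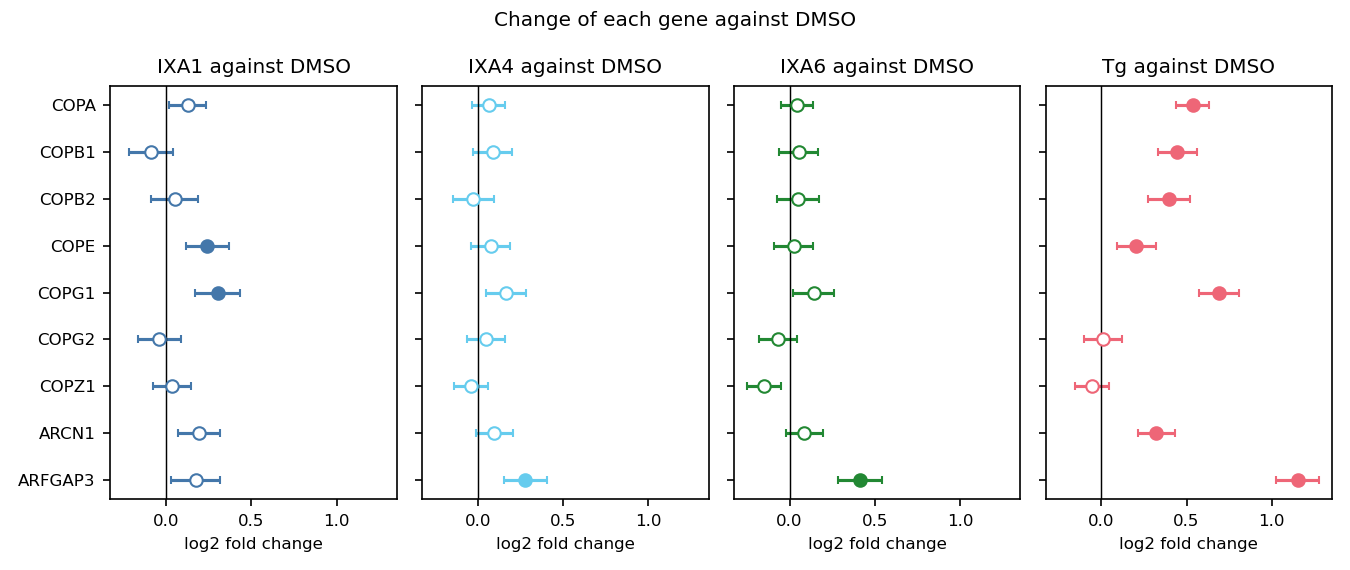
Log2 fold change of each gene against DMSO with its 95% interval, in a panel for each treatment. Filled points passed the edgeR test over all genes and open points did not. With Tg the points run from -0.05 (COPZ1) to 1.15 (ARFGAP3), and with the IXA compounds the coat genes stay between -0.15 and 0.30.

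Promoter sequence is shown for the genes that bear the response-element letters and rose together with Tg, and for COPG2 and ARFGAP3 beside them, since COPG2 is the paralog that did not move and ARFGAP3 rose the most. UPR response elements are short DNA motifs bound by ATF6 and XBP1s. The sequences are the 250 bases before the annotated start, from the RefSeq promoter table (GRCh38.p14), 5′ to 3′ on the gene's strand. All 9 genes matched that table in 10 windows, COPB2 having a pair of starts, of which the upstream one is printed. Capitals mark the UPR element TGACGTGG and its core ACGTGG on either strand, and each TGACGTGG also holds the core.
COPB1, chr11:14499812-14500061, minus strand: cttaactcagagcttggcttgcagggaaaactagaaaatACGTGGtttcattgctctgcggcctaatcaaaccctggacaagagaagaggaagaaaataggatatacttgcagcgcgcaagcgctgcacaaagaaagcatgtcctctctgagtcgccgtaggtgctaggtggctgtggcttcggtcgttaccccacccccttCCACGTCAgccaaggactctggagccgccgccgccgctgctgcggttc
COPB2, chr3:139389681-139389930, minus strand: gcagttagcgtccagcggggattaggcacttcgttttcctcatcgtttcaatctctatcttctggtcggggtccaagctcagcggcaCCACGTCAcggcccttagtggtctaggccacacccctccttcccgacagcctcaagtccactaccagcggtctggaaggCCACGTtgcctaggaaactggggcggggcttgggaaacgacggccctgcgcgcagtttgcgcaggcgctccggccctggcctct
ARCN1, chr11:118572159-118572408, plus strand: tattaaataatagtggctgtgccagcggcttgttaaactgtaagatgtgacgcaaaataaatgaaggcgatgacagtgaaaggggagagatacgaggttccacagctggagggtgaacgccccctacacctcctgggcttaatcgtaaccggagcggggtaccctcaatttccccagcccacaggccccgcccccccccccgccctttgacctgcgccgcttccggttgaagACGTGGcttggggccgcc
COPG1, chr3:129249356-129249605, plus strand: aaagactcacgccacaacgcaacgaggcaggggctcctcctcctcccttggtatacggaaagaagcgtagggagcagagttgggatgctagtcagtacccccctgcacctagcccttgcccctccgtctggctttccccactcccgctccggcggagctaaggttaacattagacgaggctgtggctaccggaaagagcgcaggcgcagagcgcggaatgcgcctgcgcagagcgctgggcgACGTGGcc
COPG2, chr7:130668749-130668998, minus strand: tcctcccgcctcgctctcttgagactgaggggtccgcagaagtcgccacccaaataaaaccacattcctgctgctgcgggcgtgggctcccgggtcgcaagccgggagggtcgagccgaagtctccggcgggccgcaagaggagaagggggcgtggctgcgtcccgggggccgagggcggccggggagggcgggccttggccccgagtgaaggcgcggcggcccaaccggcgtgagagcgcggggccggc
ARFGAP3, chr22:42857274-42857523, minus strand: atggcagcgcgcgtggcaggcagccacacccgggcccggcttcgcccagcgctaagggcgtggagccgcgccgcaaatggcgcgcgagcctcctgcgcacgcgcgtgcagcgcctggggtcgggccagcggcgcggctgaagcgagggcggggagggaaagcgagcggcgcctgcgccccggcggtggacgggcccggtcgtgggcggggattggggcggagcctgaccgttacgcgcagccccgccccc

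TGACGTGG was found in COPB1, beginning 48 bases before the start, and in COPB2, 163 bases before the start. It occurs in 0.612% of the 35116 RefSeq windows of the same length. The core ACGTGG was found in 4 of the 9 genes, COPB1, COPB2, ARCN1 (18 bases before the start) and COPG1 (8 bases), and in 8.37% of all windows. The COPG2, COPZ1, COPA, COPE and ARFGAP3 windows hold neither. The longer ER stress elements, ERSE and ERSE-II, are in none of the 10 windows and in 0.074% and 0.0513% of all windows. The plain letters CCAAT were found in COPZ1, COPE and ARFGAP3, and in 32% of all windows. The letters TGACG, the first part of TGACGTGG, were found in 4 of the 9 genes, COPB1, COPB2, ARCN1 and COPE, and in 21.2% of all windows. A match describes letters in a window and not a bound site. COPA, COPE and ARFGAP3, which hold neither TGACGTGG nor ACGTGG, rose with Tg too, and the COPA and COPE windows are not printed.

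Among the outer subunits, COPA, the alpha subunit, which binds the dilysine signals of retrieved cargo, was high in every Tg library. It had 387, 409 and 396 CPM with Tg, against 273, 264 and 285 CPM with DMSO. Its rise with Tg was 1.45-fold (log2 fold change 0.54 ± 0.046 SE, edgeR adjusted p = 1.87e-09). With IXA1 both libraries, at 296 and 301 CPM, lay just above the DMSO libraries, but the difference did not pass (0.13 ± 0.051, adjusted p = 0.224). With IXA4 and IXA6 the libraries overlapped those of DMSO, at 285 to 287 and 272 to 299 CPM. COPA shares 129 exonic bases with NCSTN on the opposite strand in GENCODE, and whether the counting used strand is not given in the sources used here. NCSTN itself averaged 112 CPM with Tg and 94.1 CPM with DMSO, a log2 fold change of 0.26 that is smaller than that of COPA. With the IXA compounds NCSTN had larger fold changes than COPA, 0.25 with IXA1 (adjusted p = 0.0374), 0.15 with IXA4 and 0.15 with IXA6, against 0.13, 0.06 and 0.04 for COPA. The part of shared reads in the COPA values was not tested.

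COPB2, the beta-prime subunit, is the other arm of that outer layer and also reads dilysine signals. It had 501, 432 and 468 CPM with Tg, against 323, 356 and 385 CPM with DMSO. The groups did not overlap, although DMSO spread the most here of all 9 genes (coefficient of variation 8.74%). COPB2 rose 1.32-fold with Tg (0.40 ± 0.059, adjusted p = 9.49e-06). With each IXA compound its libraries, from 337 to 386 CPM, overlapped those of DMSO, and the log2 fold changes were 0.05 with IXA1, -0.03 with IXA4 and 0.05 with IXA6. Their 95% intervals reached no further than -0.15 and 0.19.

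COPE, the epsilon subunit, which stabilises alpha, moved less with Tg than its partners and more with IXA1. It had 119 and 113 CPM with IXA1 and 110.4, 119 and 111 CPM with Tg, against 98.0, 99.9 and 96.7 CPM with DMSO. It rose with IXA1 (0.24 ± 0.062, adjusted p = 0.0368) and with Tg (0.21 ± 0.056, adjusted p = 0.00537). The IXA1 call was lost without any single library of DMSO or IXA1 (adjusted p = 0.0917 to 0.313), with the replicate block (adjusted p = 0.0546) and with scaling by library totals (adjusted p = 0.0768), and the Tg call was lost with library totals (log2 fold change 0.14, adjusted p = 0.0623). The IXA4 libraries, at 101 to 108 CPM, were all above DMSO (0.08 ± 0.056, adjusted p = 0.738), and the IXA6 libraries, at 92.3 to 104 CPM, overlapped it. In GENCODE 19.9% of the 50-base windows of the COPE transcript also occur in a second gene model on the same strand, the largest such share among the 9 genes.

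In the membrane-facing layer, COPB1, the beta subunit, and ARCN1, the delta subunit, both rose with Tg. COPB1 had 354, 310.2 and 328 CPM with Tg, against 239, 251 and 238 CPM with DMSO, with no overlap. Its rise was 1.36-fold (0.45 ± 0.055, adjusted p = 6.54e-07). With IXA1 both COPB1 libraries, at 223 and 234 CPM, lay below every DMSO library (-0.09 ± 0.062, adjusted p = 0.532). In IXA4 (249 to 267 CPM) and IXA6 (237 to 272 CPM) COPB1 overlapped DMSO. In GENCODE 10.4% of the 50-base windows of the COPB1 transcript also occur in another gene model on the same strand.

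ARCN1 had 453, 516 and 530.4 CPM with Tg, against 410.5, 396 and 392 CPM with DMSO. It rose 1.25-fold with Tg (0.32 ± 0.054, adjusted p = 4.06e-05). With IXA1 it stood at 444 and 468 CPM, above every DMSO library, without passing the edgeR test (0.19 ± 0.060, adjusted p = 0.0992). On the same libraries the adjusted p was 0.0464 with DESeq2, and it was 0.0167 in edgeR with the IXA1 and DMSO libraries alone. The authors' deposited table gives 0.000344 at a log2 fold change of 0.185, and which IXA1 libraries it rests on is not stated there. With IXA4 and IXA6 all ARCN1 libraries were above DMSO as well, at 413 to 449 and 412 to 435 CPM, with log2 fold changes of 0.10 and 0.09 that did not pass (adjusted p = 0.626 and 0.419).

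Like COPG2 and unlike the other coat genes, COPZ1, the zeta subunit, a small partner of gamma, did not rise with Tg. It had 258, 266 and 291 CPM with Tg, against 272, 280.2 and 295 CPM with DMSO, and the groups overlapped. Its log2 fold change with Tg was -0.05 (95% interval -0.16 to 0.05, adjusted p = 0.418). With scaling by library totals, which moves the Tg values down relative to DMSO, COPZ1 was called lower with Tg (-0.12, adjusted p = 0.0344). With IXA6 the libraries, at 260.2, 247 and 257 CPM, were all below the DMSO libraries, with a log2 fold change of -0.15 ± 0.049 that did not pass the edgeR test (adjusted p = 0.114). The authors' deposited table has the same log2 fold change of -0.149 with an adjusted p of 0.0458. COPZ1 made up 11.6% ± 0.56 of the counts of the 8 coat genes with Tg and 15.2% ± 0.34 with DMSO (SD, n = 3 each).

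The gamma subunit, which contacts ARF1 and the membrane, is encoded by the paralogs COPG1 and COPG2, and COPG1 rose with Tg and IXA1 whereas COPG2 passed the test with no treatment. COPG1 had 178, 203 and 178 CPM with Tg and 143 and 142 CPM with IXA1, against 118, 117 and 111 CPM with DMSO. It rose 1.61-fold with Tg (0.69 ± 0.058, adjusted p = 1.16e-09), more than any other coat gene, and 1.23-fold with IXA1 (0.30 ± 0.064, adjusted p = 0.0104). Leaving out DMSO replicate 3 (adjusted p = 0.0531), IXA1 replicate 1 (0.125) or IXA1 replicate 2 (0.116) ended the IXA1 call, while the log2 fold change stayed between 0.28 and 0.32 over the 5 libraries left out in turn. With IXA4 (124 to 134 CPM) and IXA6 (118 to 134 CPM) every COPG1 library was above every DMSO library, at log2 fold changes of 0.17 ± 0.058 and 0.14 ± 0.058 that did not pass (adjusted p = 0.295 and 0.195). For IXA6 the gap was slight, 118.2 CPM in its lowest library against 118.1 CPM in the highest DMSO library.

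COPG2 had 85.2, 82.8 and 90.9 CPM with Tg, against 85.7, 84.3 and 87.0 CPM with DMSO. The Tg and DMSO libraries overlapped, and the log2 fold change was 0.01 (95% interval -0.10 to 0.12, adjusted p = 0.899), or -0.06 with library totals. Among all 14 libraries COPG2 stayed between 79.4 and 90.9 CPM. The IXA4 libraries, at 87.8 to 89.4 CPM, were just above DMSO, and the IXA6 libraries, at 81.1 to 82.3 CPM, were just below it, neither past the test (adjusted p = 0.844 and 0.549).

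Since reads of both paralogs come from the same library, their ratio does not depend on how libraries are scaled. There were 0.467 ± 0.053 COPG2 counts per COPG1 count with Tg (SD, n = 3), 0.586 ± 0.037 with IXA1 (n = 2), 0.684 ± 0.024 with IXA4 (n = 3) and 0.644 ± 0.046 with IXA6 (n = 3), against 0.744 ± 0.032 with DMSO (n = 3). In each treatment all libraries lay below all DMSO libraries. The differences in log2 ratio were -0.68 with Tg, -0.34 with IXA1, -0.12 with IXA4 and -0.21 with IXA6, each with an exact two-sided permutation p of 0.1, the smallest these group sizes allow, so that none can pass 0.05. COPG1 and COPG2 together were at 272 ± 12 CPM with Tg and 201 ± 2.7 CPM with DMSO, and COPG2 gave 31.8% ± 2.5 of that pair's counts with Tg and 42.6% ± 1.1 with DMSO. No 50-base window of the COPG1 transcript occurs in another gene's GENCODE transcripts, so it shares no exact stretch of that length with COPG2 there. Shorter or inexact matches, and how the reads were assigned, were not tested. In GENCODE, COPG2 shares 228 exonic bases with MEST and 139 with an antisense gene, both on the opposite strand. It shares 101 with TSGA13 on the same strand, where 1.69% of its 50-base windows occur. The part of shared reads in the ratio was not tested.

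**Figure D3:**
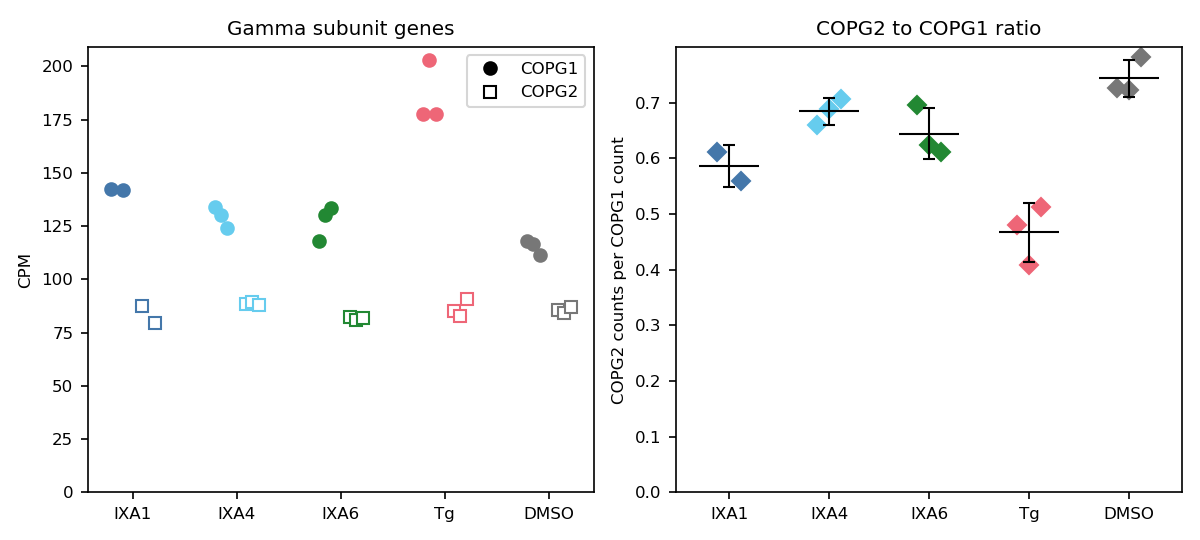
Left, CPM of the gamma subunit genes COPG1 (filled circles) and COPG2 (open squares) in every library, by group. Right, COPG2 counts per COPG1 count in every library, with the mean ± SD. Both axes are linear and start at 0. The COPG1 mean is higher in each treated group, though past the test only with Tg and IXA1. COPG2 stays between 79.4 and 90.9 CPM. The ratio falls to 0.408 in a Tg library, against 0.723 to 0.781 in the DMSO libraries.

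ARFGAP3 changed more than any coat gene with Tg, IXA4 and IXA6. It had 112, 102 and 105 CPM with Tg, against 45.3, 52.1 and 46.1 CPM with DMSO. The groups were far apart, with the lowest Tg library well above the highest DMSO library. The fitted rise was 2.22-fold (1.15 ± 0.060, adjusted p = 1.92e-13), and leaving out any single library kept it between 1.11 and 1.22 on the log2 scale.

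With the IXA compounds the rise of ARFGAP3 was smaller. It stood at 63.7, 64.2 and 63.2 CPM with IXA6, at 57.0, 57.6 and 59.5 CPM with IXA4, and at 53.7 and 54.2 CPM with IXA1, and all of these lay above the highest DMSO library. The rise passed with IXA6 (1.33-fold, 0.41 ± 0.062, adjusted p = 0.00024) and with IXA4 (1.21-fold, 0.28 ± 0.062, adjusted p = 0.0249), but not with IXA1 (0.17 ± 0.069, adjusted p = 0.213). The IXA6 call held without any single library (highest adjusted p = 0.00392). Leaving out DMSO replicate 1 (adjusted p = 0.128), DMSO replicate 3 (0.139), IXA4 replicate 1 (0.0647), IXA4 replicate 2 (0.0819) or IXA4 replicate 3 (0.158) ended the IXA4 call. DMSO replicate 2, at 52.1 CPM, is the highest DMSO library for this gene. ARFGAP3 overlaps PACSIN2 on the same strand by 155 bases in GENCODE, and 3.81% of its 50-base windows occur there. PACSIN2 was at 102 CPM with Tg and 84.4 CPM with DMSO (0.27 ± 0.054, adjusted p = 0.000292) and did not pass with any IXA compound.

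Between the IXA compounds the differences in these genes were small. The 3 pairs were compared over all 13243 genes, with p-values adjusted over the genes of each pair, and at unknown doses. For IXA6 against IXA1, ARFGAP3 was higher (0.24 ± 0.069, adjusted p = 0.0354), and COPE (-0.22 ± 0.062, adjusted p = 0.0326) and COPZ1 (-0.18 ± 0.055, adjusted p = 0.0415) were lower, where 7.35% of all genes were called in either direction. Each of these calls depended on single libraries. ARFGAP3 lost its call without IXA1 replicate 1 (adjusted p = 0.223) or 2 (0.144) and without IXA6 replicate 1 (0.0941) or 2 (0.0827). COPE lost it without IXA1 replicate 1 (0.287) or 2 (0.0931) and without IXA6 replicate 1 (0.135), and COPZ1 without any single library of the pair (0.0569 to 0.26). With library totals COPE and COPZ1 lost theirs (0.0627 and 0.0586).

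For IXA4 against IXA1 none of the 9 genes passed edgeR, where 2.58% of all genes were called, with 3 of the 9 at an unadjusted p under 0.05 and 0 called by DESeq2. The ARFGAP3 difference was 0.11 on the log2 scale (95% interval -0.04 to 0.25). For IXA6 against IXA4 none of the 9 passed and 0% of all genes were called by edgeR, with 3 of the 9 and 1222 of all genes at an unadjusted p under 0.05. DESeq2 called 0 of the 9 and 18 of all genes in that pair. ARFGAP3 was 0.13 higher with IXA6 than with IXA4 (95% interval 0.01 to 0.26, adjusted p = 0.497), with all IXA6 libraries above all IXA4 libraries.

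ARFGAP3 was higher with Tg than with each IXA compound, and so were 4 of the 8 coat genes against IXA1, 5 against IXA4 and 6 against IXA6. Of the 9 genes 5 were higher with Tg than with IXA1 (17.9% of all genes were called higher), 6 higher than with IXA4 (18.4%) and 7 higher than with IXA6 (16.8%). ARFGAP3 differed by 0.98 ± 0.068, 0.87 ± 0.060 and 0.74 ± 0.059 on the log2 scale from IXA1, IXA4 and IXA6. COPA, COPB1, COPB2 and COPG1 passed in all 3 of these comparisons, and COPG2 and COPZ1 in none. COPE passed against IXA6 alone (0.18 ± 0.056, adjusted p = 0.0145), a call lost without IXA6 replicate 1 (adjusted p = 0.0786), in the fit of these groups alone (0.0562) and with library totals (0.134). COPE with Tg did not differ past the test from IXA1 (-0.04, 95% interval -0.16 to 0.09).

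The rest of the retrograde pathway was read from a list of 31 other genes, of which 30 were measured and COPZ2 was not analysed here. With Tg 15 of the 30 rose and none fell, at a median log2 fold change of 0.20, against -0.0077 for all genes, of which 18.8% were called higher and 17% lower. Of the p24 proteins, transmembrane cargo receptors that bind the coat, 5 of 8 rose, led by TMED7 (424 CPM with Tg and 135 CPM with DMSO, log2 fold change 1.64 ± 0.071, adjusted p = 3.7e-15). TMED10 rose by 0.85 ± 0.044 (adjusted p = 1.16e-13). Among the ARF GTPases, 2 of 5 rose, ARF4 (518 CPM with Tg and 291 CPM with DMSO, 0.83 ± 0.052, adjusted p = 5.46e-12) and ARF1 (0.40). KDEL receptors, which return escaped ER proteins through COPI vesicles, rose in 2 of 3 cases, KDELR2 (0.39) and KDELR3 (0.40). Golgi-to-ER SNAREs and tethers rose in 4 of 8, and the other ARF GAP genes ARFGAP1 and ARFGAP2 in 0 of 2, with log2 fold changes from 0.10 to 0.17.

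With the IXA compounds 2 to 4 of the 30 genes rose. The shares of all genes called higher were 1.82% with IXA1, 0.717% with IXA4 and 1.51% with IXA6, and 0.491% were called lower with IXA1. With IXA1 2 rose and 1 fell, KDELR1 (485 CPM with IXA1 and 363 CPM with DMSO, 0.42 ± 0.070, adjusted p = 0.00106), TMED10 (0.37 ± 0.048) and ARFGAP2 (-0.26 ± 0.066, adjusted p = 0.0362). With IXA4 2 rose, TMED7 (0.38 ± 0.071, adjusted p = 0.00395) and TMED10 (0.32 ± 0.044). With IXA6 4 rose, TMED7 (0.42 ± 0.071), TMED10 (0.33 ± 0.044), ARF4 (0.23 ± 0.052, adjusted p = 0.0161) and TMED5 (0.22 ± 0.057, adjusted p = 0.0457). TMED10 was thus the list gene that passed with all 4 treatments. Of the 10 COPII genes, which form the coat for export from the ER, 2, 2, 3 and 6 rose with IXA1, IXA4, IXA6 and Tg and 1 fell with Tg, beside 1.82%, 0.717%, 1.51% and 18.8% of all genes called higher and 17% lower with Tg, SEC24D being the largest each time (0.76, 0.75, 0.86 and 2.32).

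**Figure D4:**
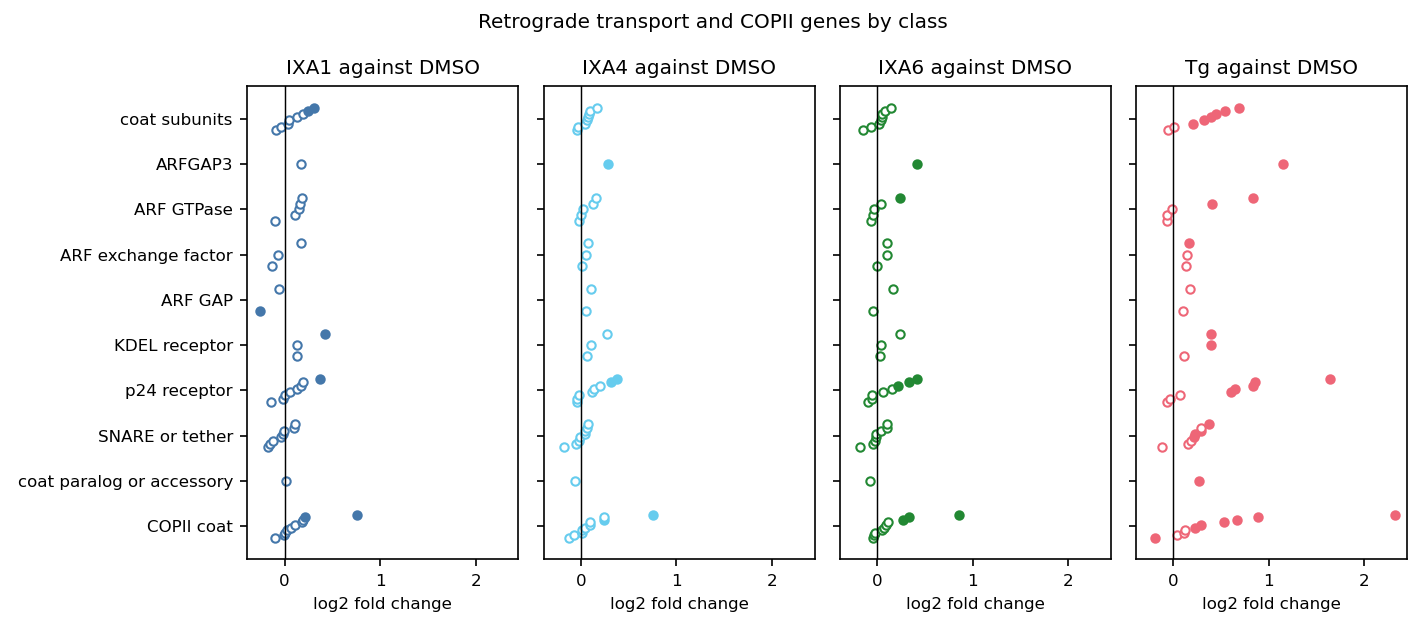
Log2 fold change against DMSO of the COPI coat genes, ARFGAP3, the other retrograde transport genes by class and the COPII genes, in a panel for each treatment. Each point is a gene, filled where it passed the edgeR test over all genes. With Tg ARFGAP3 (1.15) lies beyond all 8 coat genes (up to 0.69), and TMED7 (1.64) and the COPII gene SEC24D (2.32) lie further out.

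How the genes varied together over the 14 libraries is described by Pearson's r of log2 CPM. ARFGAP3 ran with COPB1 (r = 0.915), COPA (0.906), COPG1 (0.889) and COPB2 (0.88), less with ARCN1 (0.757) and COPE (0.486), and not with COPG2 (0.0559) or COPZ1 (-0.297). COPG2 and COPZ1 had r = 0.515 with each other, and COPE ran closest to COPG1 (0.784) and ARCN1 (0.721) and less with COPB1 (0.242). Libraries of a group share a treatment, so these values mostly carry the step between Tg and the rest. Among 10709 other genes with a mean of at least 5 CPM, those most like ARFGAP3 were LARP1B (r = 0.9905), ERLEC1 (0.9902), UFM1 (0.9893), STARD4 (0.9862) and LYSMD3 (0.9848). LARP1B averaged 69.4, 80.8, 85.1 and 171 CPM with IXA1, IXA4, IXA6 and Tg, and 61.2 CPM with DMSO, the same order as ARFGAP3. Those most like the mean of the 8 coat genes were STC2 (0.987), SLC7A11 (0.9862), DDIT4 (0.9847), SLC7A1 (0.9841) and SHCBP1 (0.9841). STC2 averaged 84.7, 59.3, 56.4 and 311 CPM with IXA1, IXA4, IXA6 and Tg, and 50 CPM with DMSO, so that among the IXA compounds IXA1 was highest, whereas for ARFGAP3 IXA1 was lowest.

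In the authors' deposited tables, whose headers do not name the group each compound was compared with, ARFGAP3 has log2 fold changes of 0.207, 0.281, 0.414 and 1.15 for IXA1, IXA4, IXA6 and Tg. In the authors' deposited tables, of the 9 genes 3, 1, 1 and 7 are higher and 0, 0, 1 and 0 lower at an adjusted p under 0.05. The log2 fold changes of the 9 genes differed from those found here by at most 0.033 for IXA1 and by at most 0.0025 for the other treatments.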

How the data were processed

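The authors deposited raw counts per gene symbol, a column for each library. GRCh37.p13 and DESeq are named in the submitters' processing notes. Aligner, counter and strand handling: not given in the sources used here. Log2 fold changes and p-values deposited by the authors were only set beside the values found here. Of 15 count columns, 1 carries a name found in no title and was left out, so that IXA1 has 2 libraries. The labels list another IXA1 sample with no column of its own, and whether the unused column belongs to it could not be settled from the name. Replicates of a group differed by more than sampling noise (chi-square per degree of freedom 2.49 to 9.34). The 22 rows with a date as name (0.249% to 0.282% of counts) stayed in the fit.

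Counts were fitted in R 4.3.3 with edgeR 4.0.16 (TMM, default filter, which removed no gene, quasi-likelihood test), all groups in a single fit without covariates. P-values were adjusted by Benjamini-Hochberg over 13243 genes in each of 10 comparisons. SE is the log2 fold change over the square root of F. DESeq2 1.42.0, other scalings, filters, a replicate block and leaving out each library were alternatives. When a library of IXA1 is left out, the lone library is assumed to vary like the other groups. Promoter windows and motifs were read in Python 3.11.15.

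The rule for named genes takes all 9 members, the 3 largest called changes of the retrograde list and the largest of the COPII list against DMSO, a panel, and the 5 genes most alike by r; KDELR2, KDELR3 and TMED5 or others beyond it were named to spell out small counts after their values were seen. Members, lists and motifs were chosen with earlier results of these data known.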

Additional observations from a re-analysis of the deposited data

How the results depend on the processing

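The 7 genes called higher with Tg kept their calls in each of the 6 fits that left out a library, and all but COPE did with library totals, and ARFGAP3 kept its call with IXA6 in every alternative. Replicate numbers showed no clear pairing of the libraries. The r of deviations was -0.252 to 0.249 over 26 same-number pairs (7 over 0.1) and -0.303 to 0.303 over different-number pairs. Of 14 libraries 5 were best with their own number. With only 2 or 3 libraries in a group, the check cannot decide whether replicates were paired. With the replicate block 1 of the 9 genes was called with IXA1 in place of 2.

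Of the 9 genes, the calls for IXA1 against DMSO (2) were 1 with library totals and 0 to 1 without a single library. Those for IXA4 against DMSO (1) were 0 to 1 without a library. Those for IXA6 against IXA1 (3) were 1 with library totals and 0 to 2 without a library, and those for IXA4 against IXA1 (0) were 2 in the fit of these groups alone.

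Of all genes, calls for IXA1 against DMSO (306) were 648 with the groups alone and 82 to 181 without a library. Calls for IXA4 against DMSO (106) were 198 and 69 to 95, and for IXA4 against IXA1 (342) 1156 and 11 to 166, in the same order. Without a library they were 118 to 319 for IXA6 against DMSO (303), 113 to 1128 for IXA6 against IXA1 (974) and 2949 to 4778 for Tg against IXA1 (4485). For IXA6 against IXA4 (0) they were 2 with library totals, 3 among genes of at least 5 CPM, 18 with DESeq2, 13 with the groups alone and 0 to 2 without a library. With library totals, calls higher and lower were 184 and 152 for IXA4 against IXA1 (90 and 252 with TMM), 607 and 437 for IXA6 against IXA1 (374 and 600), 1894 and 2668 for Tg against IXA1 (2373 and 2112), 1679 and 3436 for Tg against IXA4 (2431 and 2125) and 1499 and 2988 for Tg against IXA6 (2222 and 1886).

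Log2 fold changes against DMSO that changed sign were all of genes not called. Without a single library, with IXA1 COPB2 ran from -0.013 to 0.12 and COPG2 from -0.11 to 0.027. With IXA4 COPB2 ran from -0.088 to 0.040. With IXA6 COPB2 ran from -0.013 to 0.11, COPB1 from -0.0063 to 0.095, COPE from -0.0068 to 0.076 and COPA from -0.00028 to 0.075. With Tg COPG2 ran from -0.028 to 0.040 and was -0.059 with library totals. The cause was not tested. The COPG2 to COPG1 log2 ratio stayed below DMSO without any single library, from -0.748 to -0.585 with Tg, -0.41 to -0.279 with IXA1, -0.143 to -0.0834 with IXA4 and -0.267 to -0.173 with IXA6.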
